A study of Mus musculus with 10 samples.

Results

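The genes described here are the 46 protein-coding mouse genes whose symbols begin with Nduf, out of 27876 genes matched in the authors' deposited table. They encode the nuclear subunits of respiratory complex I, its Ndufaf assembly factors, and the 2 related genes Ndufa4 and Ndufa4l2. Members were taken by symbol and gene type alone, and the transcript of highest mean level stood for each gene. Whole kidney RNA of wild-type mice was sequenced at day 14. One group of 5 mice drank water with quinolinic acid at 0.5 g/L, and the other 5 received vehicle, which gave 10 libraries under 1 batch label. Quinolinic acid is a product of tryptophan breakdown that can be turned into NAD. No source used here gives the strain, sex, age or make-up of the vehicle, or says whether the kidneys were injured by a further procedure.

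Complex I is the entry point of electrons from NADH into the mitochondrial respiratory chain. Its peripheral arm, in the matrix, takes electrons from NADH at the N module and passes them over iron-sulfur clusters to quinone at the Q module, and its membrane arm pumps protons. Core subunits carry out the catalysis, accessory subunits stabilise the arms, and assembly factors help build the complex without remaining in it. Kidney tubules, above all the proximal tubule and thick ascending limb, depend on oxidative phosphorylation for solute transport.

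The values come from a finished comparison of the 2 groups. For each of 85107 transcripts the authors' deposited table holds the log2 fold change, the mean level as log2 CPM (counts scaled to a fixed library total), the likelihood ratio, and the p-value before and after adjustment. Values of single mice were not analysed here, so the spread between mice and the depth of each library are unknown. Errors are approximate 95% intervals computed from the fold change and the likelihood ratio. Which group was divided by which cannot be read from the header, so a sign is given as deposited and says nothing on which group had more RNA. The labelled tissue had its markers: the 7 proximal tubule genes lay between 103 and 16082 CPM and the 4 thick ascending limb genes between 8.32 and 1274 CPM. In whole kidney RNA, fewer cells of a type and less RNA per cell cannot be told apart.

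No complex I gene differed between the groups by the authors' test. None of the 46 genes had an adjusted p under 0.05 in edgeR's likelihood-ratio test, and none had an unadjusted p under 0.05. Over the whole table, the adjusted threshold was passed by 0.0141% of transcripts and by 0.0215% of genes, and 4.07% of the 12632 protein-coding genes of at least 1 CPM had an unadjusted p under 0.05. The sign was positive in all 46 members, whose median log2 fold change was 0.19, a 1.14-fold difference. It was positive in 71.8% of protein-coding genes of at least 1 CPM, whose median was 0.08. Every member lay above 1 CPM.

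The members differed little among themselves. Their log2 fold changes ran from 0.05 to 0.32, with the middle 50% from 0.17 to 0.22 and a standard deviation of 0.05. The median standard error of a single member was 0.16. This is the error of a gene's difference between the groups. The members share libraries, so the error of a difference between 2 members is unknown here, and their order was not tested. The same range held 52.8% of all protein-coding genes of at least 1 CPM. All 46 intervals included 0. The intervals of 42 members lay within 0.6 on either side of 0 on the log2 scale and all 46 within 1, so a 2-fold difference lay outside each of them.

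**Figure D1:**
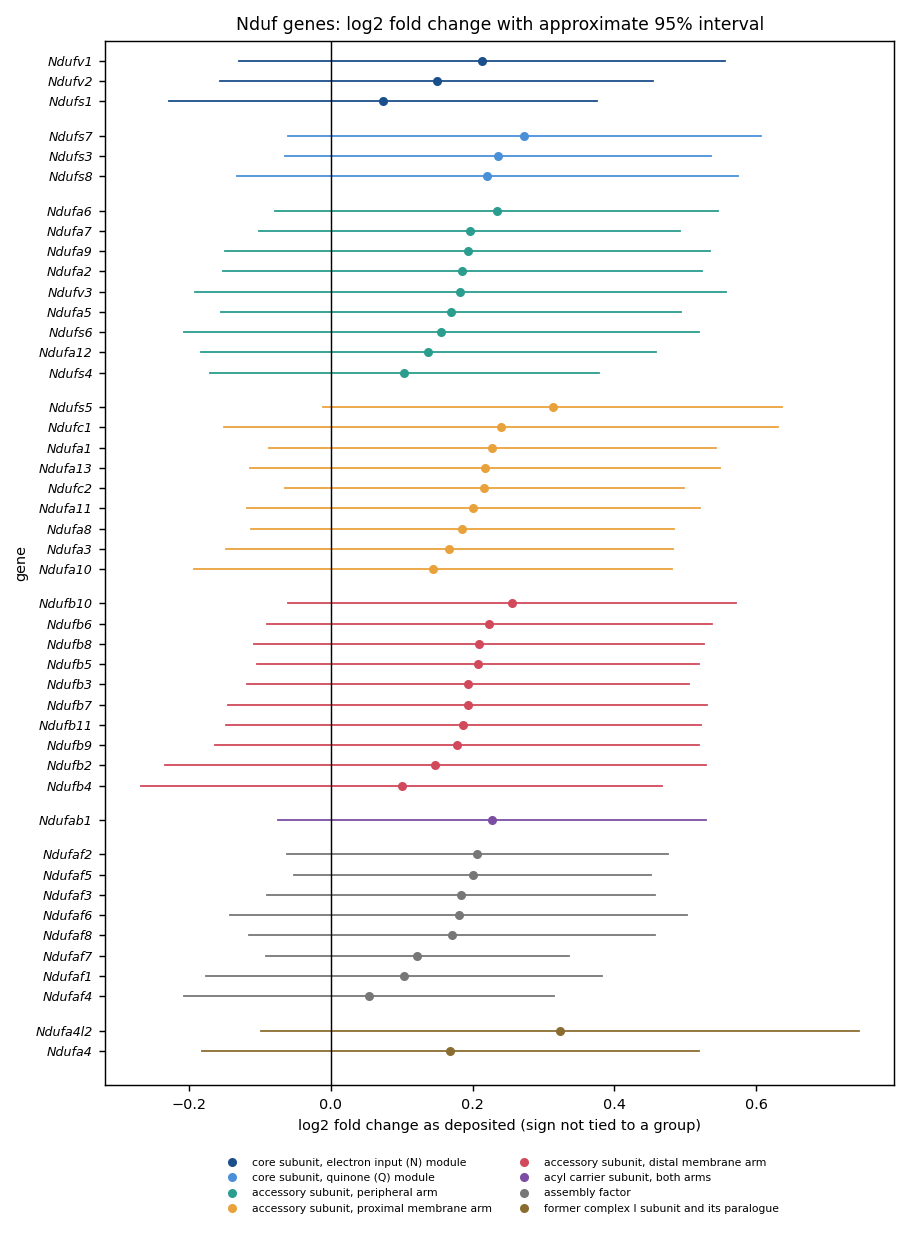
Log2 fold change between vehicle and quinolinic acid mice as deposited (x axis) for 45 of the 46 Nduf genes (y axis), coloured by role. Points are the deposited values and bars approximate 95% intervals. All points lie between 0.05 and 0.32 and every bar crosses 0.

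Promoters of 3 members are shown, those of the gene with the smallest p, Ndufs5, the gene with the largest p, Ndufaf4, and the core subunit with the smallest p, Ndufs7. They are RefSeq windows on GRCm38.p6, from 250 bases before to 50 bases after the RefSeq start, read in the direction of the gene. For Ndufs5 and Ndufs7 this start is not that of the transcript that stood for the gene. Coordinates given with a gene in later paragraphs are those of the transcript that stood for it. Their positions are chr4:123718137-123718436 on the minus strand for Ndufs5, chr4:24897833-24898132 on the plus strand for Ndufaf4 and chr10:80249199-80249498 on the plus strand for Ndufs7. Capitals mark matches to the motifs described next.
Ndufs5: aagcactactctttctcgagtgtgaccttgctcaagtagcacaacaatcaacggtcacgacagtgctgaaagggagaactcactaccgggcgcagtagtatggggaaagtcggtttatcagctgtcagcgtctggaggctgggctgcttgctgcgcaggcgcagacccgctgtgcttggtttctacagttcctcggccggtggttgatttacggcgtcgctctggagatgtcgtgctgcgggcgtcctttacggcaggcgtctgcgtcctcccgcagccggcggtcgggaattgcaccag
Ndufaf4: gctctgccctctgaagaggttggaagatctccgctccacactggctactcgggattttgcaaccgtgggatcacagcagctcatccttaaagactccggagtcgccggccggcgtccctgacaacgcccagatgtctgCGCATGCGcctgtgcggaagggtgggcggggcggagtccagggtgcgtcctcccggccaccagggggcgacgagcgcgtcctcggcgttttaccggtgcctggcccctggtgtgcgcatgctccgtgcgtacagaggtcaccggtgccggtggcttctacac
Ndufs7: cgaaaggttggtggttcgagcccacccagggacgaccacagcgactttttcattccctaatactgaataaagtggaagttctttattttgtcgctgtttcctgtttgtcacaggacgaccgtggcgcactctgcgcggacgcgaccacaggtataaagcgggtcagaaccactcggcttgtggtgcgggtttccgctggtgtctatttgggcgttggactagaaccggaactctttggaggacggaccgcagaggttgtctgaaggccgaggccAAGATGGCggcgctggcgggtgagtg

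Binding sites of NRF1, ETS factors such as GABPA, YY1 and the estrogen-related receptors are textbook elements of respiratory gene promoters, and 40 of the 46 members had a window. The letters searched, on both strands, were CGCATGCG for the NRF1 core, CCGGAAG for the ETS site, AAGATGGC for YY1 and TCAAGGTCA for the estrogen-related receptors. The YY1 letters were found in 8 of the 40 member windows (20%), against 2.88% of all 27025 windows and 4.68% of the 9924 windows of protein-coding genes of at least 1 CPM. The NRF1 core was found in 4 (10%), against 1.91% and 3.87%. The ETS letters were found in 6 (15%), against 9.12% and 18%, and the estrogen-related receptor letters in 0 of 40, against 0.407% and 0.252%. At least 1 of these motifs was present in 17 member windows (42.5%), against 13.4% and 24.8%. The Ndufaf4 window holds the NRF1 core 112 bases before the start, and the Ndufs7 window holds the YY1 letters 24 bases past it. The Ndufs5 window holds none of these letters. A match describes the letters only and shows no binding.

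Core subunits of the N module, where NADH is oxidised, were listed by the authors' deposited table at log2 fold changes of 0.21 for Ndufv1, 0.15 for Ndufv2 and 0.07 for Ndufs1. Ndufv1 (chromosome 19, 4007497 to 4012806, mm10) encodes the flavoprotein that binds NADH. In the authors' deposited table its level was 148 CPM, its interval -0.13 to 0.56 and its edgeR p 0.221 (adjusted p 0.794). Ndufs1 encodes the largest iron-sulfur subunit. At 121 CPM its interval was -0.23 to 0.38 and its edgeR p 0.630 (adjusted p 0.951) in the authors' deposited table, and only Ndufaf4 had a larger p among the members.

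In the Q module, which hands electrons to quinone, the authors' deposited table lists Ndufs7 at a log2 fold change of 0.27, Ndufs3 at 0.24 and Ndufs8, an iron-sulfur subunit, at 0.22. Ndufs7 (chromosome 10, 80249121 to 80256793) carries the last iron-sulfur cluster before quinone. In the authors' deposited table its level was 64.7 CPM, its interval -0.06 to 0.61 and its edgeR p 0.109 (adjusted p 0.794).

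Accessory subunits of the peripheral arm were 9 genes with a median of 0.18. Ndufa6, which binds the acyl carrier protein, had the largest value in the authors' deposited table, 0.23 (interval -0.08 to 0.55, 78.1 CPM, edgeR p = 0.143, adjusted p 0.794). Ndufs4, whose loss in mice is a model of Leigh syndrome, had the smallest, 0.10 at 66.3 CPM, and was given by a single transcript. The others ran from 0.14 for Ndufa12 to 0.20 for Ndufa7, with Ndufs6, Ndufa5, Ndufv3, Ndufa2 and Ndufa9 between.

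In the proximal membrane arm, 9 accessory genes had a median of 0.22. Ndufs5 (transcript taken at chromosome 4, 123712710 to 123716326, with another reaching 123718202) had the smallest p of all members. Its log2 fold change was 0.31, a 1.24-fold difference, and in the authors' deposited table its level was 14.4 CPM, its interval -0.01 to 0.64 and its edgeR p 0.0581 (adjusted p 0.794). All 4 Ndufs5 transcripts had the same rounded values, 0.31 and 14.4 CPM, so they are not separate measurements. Ndufc1, Ndufa1, Ndufa13 and Ndufc2 followed at 0.24, 0.23, 0.22 and 0.22 in the authors' deposited table. Ndufa1, encoded on the X chromosome, had an interval of -0.09 to 0.54 at 85.3 CPM and an edgeR p of 0.157 (adjusted p 0.794) there. Ndufa11 stood at 0.20, Ndufa8 at 0.19, Ndufa3 at 0.17 and Ndufa10 at 0.14.

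The distal membrane arm had 10 accessory genes with a median of 0.19. Ndufb10 had the largest value in the authors' deposited table, 0.26 (interval -0.06 to 0.57, 105 CPM, edgeR p = 0.112, adjusted p 0.794), and Ndufb4 the smallest, 0.10 at 11.2 CPM. Ndufb8, whose protein is often blotted as a readout of assembled complex I, had 0.21 (-0.11 to 0.53) at 155 CPM, with an edgeR p of 0.197 (adjusted p 0.794), by the authors' deposited table. Ndufb2 had 0.15 (-0.23 to 0.53) at 29.1 CPM, with an edgeR p of 0.447 (adjusted p 0.885) there. The other 6 genes, Ndufb3, Ndufb5, Ndufb6, Ndufb7, Ndufb9 and Ndufb11, ran from 0.18 to 0.22. Ndufab1, the mitochondrial acyl carrier protein that sits in both arms, had 0.23 (interval -0.07 to 0.53, 17.8 CPM, edgeR p = 0.140, adjusted p 0.794), again from the authors' deposited table.

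The 8 Ndufaf assembly factors had a median log2 fold change of 0.18. Ndufaf5, a hydroxylase acting on Ndufs7, had the smallest p of the group in the authors' deposited table (0.20, interval -0.05 to 0.45, 7.12 CPM, edgeR p = 0.120, adjusted p 0.794). Ndufaf2, a paralogue of Ndufa12, had 0.21, Ndufaf3 0.18, Ndufaf6 0.18 and Ndufaf8, the partner of Ndufaf5, 0.17. Ndufaf7, a methyltransferase, had 0.12 and Ndufaf1 0.10. Ndufaf4 (chromosome 4, 24898083 to 24905001), a partner of Ndufaf3, had the lowest value of all members, 0.05 (-0.21 to 0.32) at 27.8 CPM, and the authors' deposited table lists its edgeR p as 0.684 (adjusted p 0.967).

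Ndufa4 and Ndufa4l2 carry the family name, but the Ndufa4 protein is now placed in cytochrome c oxidase. Ndufa4l2, a paralogue known as a target of hypoxia-inducible factor, had the largest log2 fold change of the 46, 0.32 (interval -0.10 to 0.74, 2.57 CPM, edgeR p = 0.134, adjusted p 0.794), by the authors' deposited table. It was also the member with the lowest level and the highest upper bound. Ndufa4 had 0.17 (-0.18 to 0.52) at 253 CPM, the highest level, with an edgeR p of 0.346 (adjusted p 0.836) in the same table.

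Mean levels over the 10 libraries differed far more between members than the groups did. Per kilobase of transcript, Ndufa4 stood highest at 541 CPM per kb, followed by Ndufb8 at 228 and Ndufa1 at 204. The 36 subunits had a median of 88.1 CPM per kb and the 8 assembly factors one of 8.65, a ratio of 10.2, and 2 subunits, Ndufb2 and Ndufab1, stood below the highest assembly factor, Ndufaf2, with Ndufb7 level with it (both 16.4). Ndufaf5 (6.11) and Ndufa4l2 (2.76) were the lowest, and Ndufa4 stood 196 times above Ndufa4l2. The level of a few subunits depends on the transcript taken. Ndufb2 had 6.65 CPM per kb on a coding transcript of 4371 nt and 59.9 on another of 455 nt, at 29.1 and 27.2 CPM. Ndufb7 had 16.4 on a transcript of 4435 nt that retains an intron and 115 on its coding one of 623 nt. Ndufb4 went the other way, with 24.1 on a transcript of 465 nt that retains an intron and 11.6, below Ndufaf2, on its coding one of 971 nt. Ndufab1 had 10.7 on its most abundant transcript, 11.5 on the coding transcript of highest level, and 4.37 and 29.4 on coding transcripts of 3479 and 552 nt. With the coding transcript of highest level for each gene, the ratio of the medians was again 10.2.

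**Figure D2:**
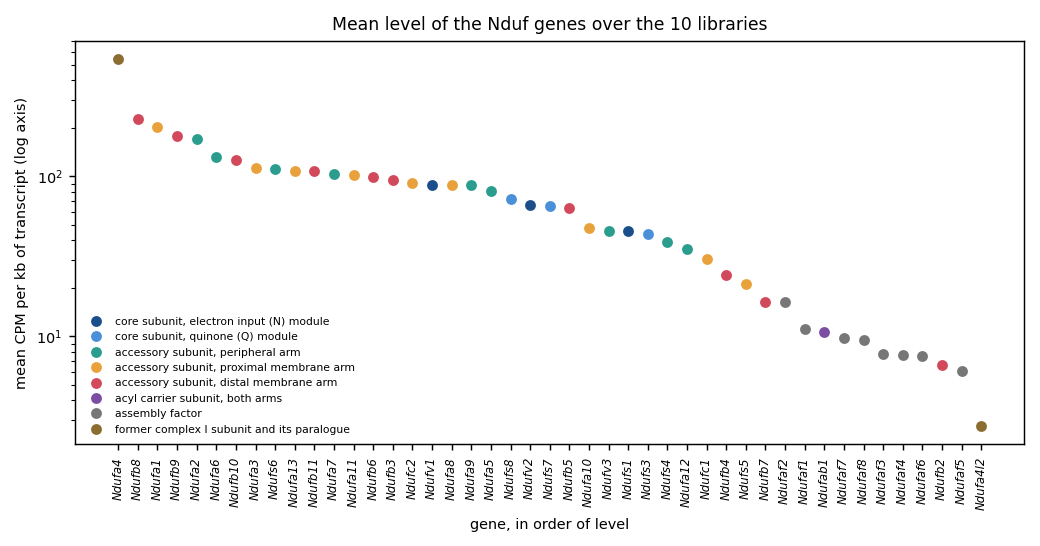
Mean level in CPM per kb of transcript (log axis) of 45 of the 46 Nduf genes in order of level, coloured by role. The points give 1 mean over the 10 libraries each, without an error. Ndufa4 stands at 541, the 8 assembly factors (grey) between 6.11 and 16.4, and Ndufa4l2 at 2.76.

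The fold change of a member went with the length of its transcript, as it did across the table. The 24 members under 1000 nt had a median log2 fold change of 0.20, the 17 members of 1000 to under 2000 nt one of 0.18 and the 5 members of 2000 nt or more one of 0.14. These 5 include Ndufb7 and Ndufb2 on long transcripts, though each also has a coding one under 1000 nt. All protein-coding genes of at least 1 CPM in the same classes had medians of 0.18 (654 genes), 0.15 (2506) and 0.05 (9472), and 93.9%, 91.4% and 65.1% of them had a positive sign. The members had a median length of 983 nt against 3096 nt for these genes. Spearman's rho between fold change and length was -0.32 across the 46 members and -0.53 across all 12632 genes. These are descriptions across genes that share the same libraries.

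With a smooth trend on length and level subtracted, the members' median was 0.02 and 27 of 46 had a positive sign. The values then ran from -0.07 for Ndufb4 to 0.17 for Ndufb7, whose most abundant transcript is the long one named above. Ndufa4l2 had 0.16, Ndufs5 0.13 and Ndufb2, also on a long transcript, 0.12. At these long lengths the trend subtracted from Ndufb7 and Ndufb2 was only 0.03 each, against a median of 0.18 over the members. Both also have a short coding transcript of nearly the same level, 623 nt at 71.4 CPM for Ndufb7 and 455 nt at 27.2 CPM for Ndufb2. Their values after subtraction thus depend on the transcript length taken. The medians were 0.00 for the N module, -0.02 for the peripheral accessory subunits, 0.02 and 0.01 for those of the proximal and distal membrane arm, and 0.00 for the assembly factors. In the Q module Ndufs7 had 0.09, Ndufs3 0.06 and Ndufs8 0.04, and Ndufab1 had 0.08. None had an adjusted p under 0.05 after the subtraction either, with the errors left as they were.

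**Figure D3:**
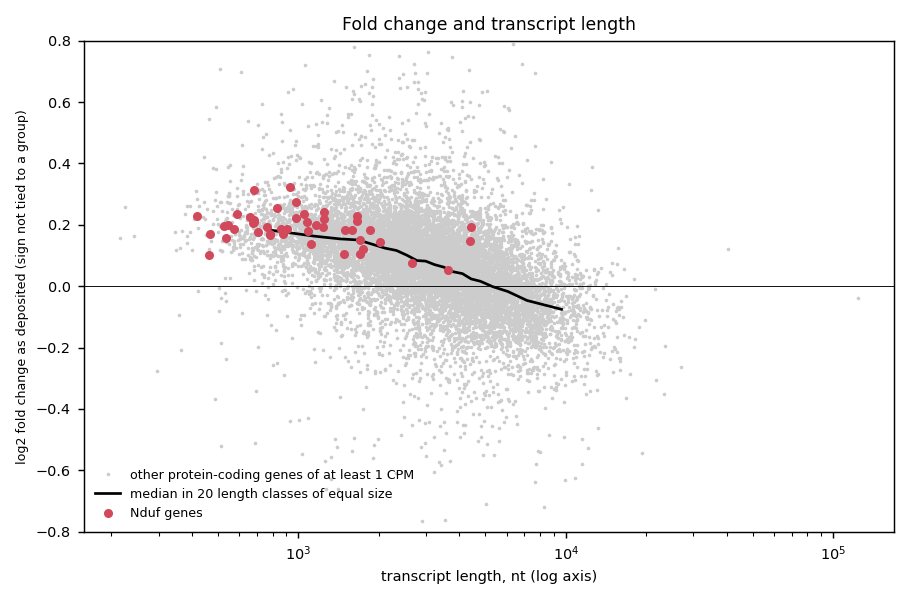
Log2 fold change as deposited against transcript length (log axis) for protein-coding genes of at least 1 CPM (grey), with the median in 20 length classes of equal size (black) and the 46 Nduf genes (red). The y axis ends at 0.8 on either side and leaves out 41 genes. Under 1000 nt the Nduf genes have a median of 0.20 against 0.18 for all these genes, and from 2000 nt 0.14 against 0.05, where Ndufb7 and Ndufb2 lie above the line. Both are drawn at the length of a long transcript, and each also has a coding one under 1000 nt.

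In some members the fold change also differed with the place of a transcript along the mRNA, most of all in Ndufs1. Ndufs1 (chromosome 1, 63143596 to 63176822) has 13 transcripts in the table. The authors' deposited table lists the 3 that are confined to the 3′ end at 0.23, 0.23 and 0.22. The full-length coding transcript had 0.07. The 4 short coding transcripts whose bases end at least 1854 nt upstream of the 3′ end had values from -0.19 to -0.13, the lowest for the one farthest from the 3′ end. By mean position, all 13 lay in this order but for differences of about 0.01 between neighbours, and the whole range was 0.42. No transcript of Ndufs1 was called, and none had an unadjusted p under 0.05 in edgeR's test.

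Ndufv1 showed the same order over a smaller range. The authors' deposited table lists its 3′ transcript at 0.25, the full-length ones at 0.21, and one that ends 1142 nt from the 3′ end at 0.13. Ndufa10 was less regular, with 0.14 at full length, 0.17 for a transcript that ends 832 nt upstream of the 3′ end and 0.09 for one that ends 1384 nt upstream. Ndufaf1 had 0.10 for its 3 full-length transcripts and -0.01 and -0.04 for 2 transcripts confined to the upstream exons. Transcripts of a gene overlap and share reads, and their differences have no error of their own here.

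Of the 30 members with several transcripts, 17 had both a transcript that reaches within 100 nt of the mRNA 3′ end and one that stops at least 500 nt before it. The first kind had the higher log2 fold change in 12 of the 17, with a median difference of 0.03 (middle 50% from 0.00 to 0.06). The first kind includes the full-length coding transcript, which in some members, such as Ndufab1 and Ndufb2, was the only one of that kind. A transcript with a 3′ end of its own can fall into the second kind. Examples are the 3479 nt coding transcript of Ndufab1, which runs past the 3′ end used, and the 455 nt coding one of Ndufb2. In these genes the difference does not compare the ends of a single mRNA. Across 5773 protein-coding genes placed the same way, the first kind was higher in 85.1%, with a median difference of 0.10. Among 1175 of these genes with an mRNA under 2000 nt it was 87.7%, with a median of 0.07. Among the members the share was 70.6%. Ndufs1 had the largest difference of the members, 0.33. Ndufs3 (-0.04), Ndufb2 (-0.03) and Ndufaf3 (-0.02) went the other way, and Ndufaf4 and Ndufb5 stood at 0.00. Whether it has a part in the positive sign of the members was not tested.

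**Figure D4:**
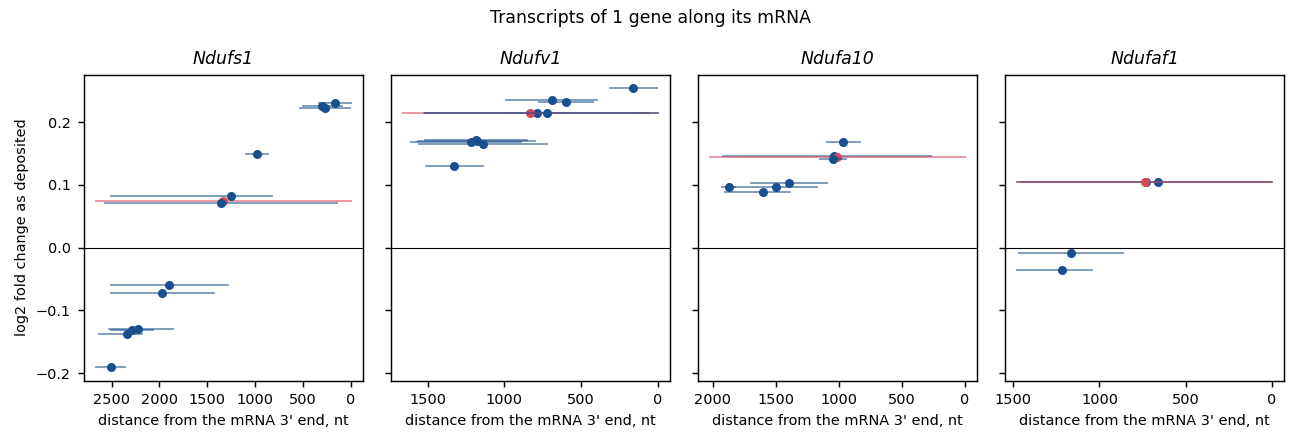
Log2 fold change as deposited for single transcripts of Ndufs1, Ndufv1, Ndufa10 and Ndufaf1, against distance from the mRNA 3′ end in nt (right is the 3′ end). Bars span the bases shared with the full-length coding transcript (red), and points mark their mean position. In Ndufs1 the values go from 0.23 at the 3′ end to -0.19 at the 5′ end.

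The counterparts of the Nduf genes are the 7 core subunits encoded in mitochondrial DNA. None of them was called and none had p under 0.05. In the authors' deposited table they ran on the log2 scale from -0.28 for mt-Nd4l (1.07 CPM) to 0.15 for mt-Nd1 (5955 CPM), with 4 positive and 3 negative and a median of 0.09. The interval of mt-Nd1 was -0.32 to 0.61, wider than that of every Nduf gene. Another 11 assembly factors that lack the Nduf name, such as Acad9 and Timmdc1, had 9 positive and 2 negative signs and a median of 0.11. By the authors' deposited table, Dmac1 (0.23, p = 0.0878) and Foxred1 (0.15, p = 0.193) had the smallest p among them. Their median length was 2387 nt, and with the trend removed their median was 0.03.

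The other complexes of the chain had values close to those of complex I, and none of their genes was called or had p under 0.05. The sign was positive in all 4 complex II genes (median 0.19), all 9 complex III genes (0.17), all 10 complex IV genes (0.23) and 15 of 16 complex V genes (0.19). By the authors' deposited table, Sdhc (0.20) and Sdhd (0.17) had the smallest p in complex II, and Uqcrfs1 (0.27) and Uqcr10 (0.20) in complex III. In complex IV they were Cox8a (0.29, p = 0.0668) and Cox5a (0.28), and in complex V Atp5g2 (-0.48 at 0.388 CPM, p = 0.0906) and Atp5l (0.29), from the authors' deposited table as well. After subtraction of the length and level trend the medians were 0.02, -0.01, 0.06 and 0.04, beside 0.02 for the 46 members and -0.09 for the 7 mitochondrially encoded subunits, which ran from -0.35 for mt-Nd4l to 0.02 for mt-Nd1.

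Regulators of mitochondrial gene expression did not share the positive sign. Of 12 genes, 4 were positive and 8 negative, with a median of -0.04 and a median length of 4233 nt. Ppargc1b, a coactivator of mitochondrial biogenesis, had -0.31 (interval -0.62 to 0.00, 1.70 CPM, edgeR p = 0.0499, adjusted p 0.794) in the authors' deposited table, and no other member of the list had p under 0.05. Ppara, a receptor that drives fatty acid oxidation genes, had -0.40 (p = 0.146), Ppargc1a -0.08, Nrf1 -0.01, Gabpa -0.04, Yy1 0.02, Esrra 0.21 and Tfam 0.15 in the authors' deposited table. The rest of the list was Esrrg at -0.20, Pprc1 at -0.13, Esrrb at -0.05 and Gabpb1 at 0.05. The factors whose motifs were searched above were thus measured, and none was called. All 11 genes of mitochondrial quality control had a positive sign (median 0.14), with Phb2 (0.24) and Bnip3 (0.24) at the smallest p. Of 12 other mitochondrial dehydrogenases and shuttles 11 were positive (median 0.09), with the smallest p for Gpd2 (-0.19) and Mdh2 (0.29).

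**Figure D5:**
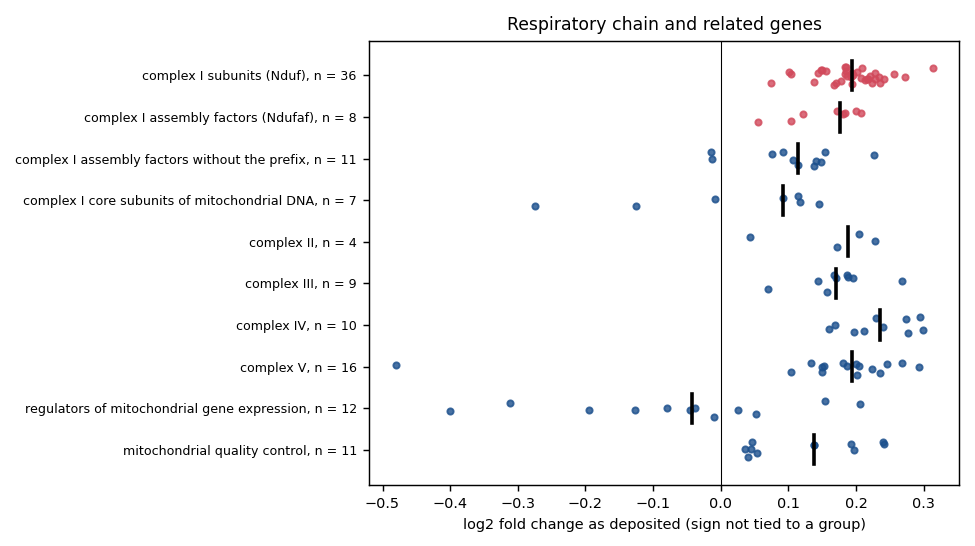
Log2 fold change as deposited for complex I subunits and assembly factors (red) and related gene lists (blue), with 1 point per gene and the median as a black bar. The nuclear Nduf subunits and complexes II to V have medians between 0.17 and 0.23, the complex I subunits of mitochondrial DNA one of 0.09 and the regulators one of -0.04.

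Markers of other cells that could carry mitochondria were compared in the same table. The 5 brown fat genes, from a tissue rich in mitochondria, had 4 positive signs and a median of 1.80, with 3 positive and 1 negative at p under 0.05, and the 4 white fat genes had values from 3.15 to 4.61, each with p under 0.05. Ppargc1b is the negative one, and it stands in the regulator list too. The summed mean levels of the brown and white fat lists were 4.17 and 1.77 CPM, against 3232 CPM for the 46 members. Of the brown fat genes only Dio2 (1.80 at 2.09 CPM) and Ppargc1b (-0.31 at 1.70 CPM) reached 1 CPM. Of the white fat genes only Cfd (1.43 CPM) did. Intervals of the fat genes below 1 CPM were wide, such as 2.15 to 7.07 for Plin1 and 0.82 to 5.49 for Lep. The 4 liver genes had values from 0.14 to 1.98 at a summed 34.6 CPM, 3 of them with p under 0.05. Serpina1a, the one at 0.14, made up 26.9 CPM of that sum. Over all 27876 genes, whatever their level, 1426 had an unadjusted p under 0.05 in edgeR's test. The 5 muscle genes were each under 1 CPM. Proximal tubule genes had a median of 0.07, thick ascending limb genes one of -0.06 and distal tubule genes one of 0.29. Medians were 0.18 for collecting duct, 0.13 for podocyte, 0.15 for endothelium, 0.18 for leukocyte and 0.17 for blood cell genes. Each of these last lists had positive signs only. None of these marker genes was called, and the part of cell make-up in the members' values was not tested.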

How the data were processed

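RNA of 10 mouse kidneys was sequenced, 5 per group, grouped by the treatment in the labels. Build mm10 and the programs STAR 2.5.3a, edgeR, FastQC 0.11.2 and featureCounts (Subread 1.4.6) are named per the submitters' processing notes. Depth, strand setting, filters and annotation release are not stated there. The authors deposited, per the file headers, fold changes and mean CPM on the log2 scale, with a likelihood-ratio score and the p-value with its adjusted form for each transcript. The deposited p equalled the chi-square tail of the score, and the adjusted p the Benjamini-Hochberg value over 85107 transcripts.

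From these, 83446 transcripts (98.0%) were matched to GENCODE vM21 (GRCm38) by identifier without version. Dividing the absolute fold change by the score's square root gave standard errors. The trend was a loess fit (span 0.5, R 4.3.3) on log2 length and level over protein-coding genes of at least 1 CPM. It was tested only on simulated data with a linear trend on length, none on level, and independent errors. Transcripts were placed over at least 100 bases shared with the gene's coding transcript of highest level, a step added after the data were examined. Python 3.11.15, numpy 2.4.6, pandas 2.3.3, scipy 1.17.1 and matplotlib 3.10.9 were used. One of the 46 members is counted in the summaries but not reported here by name. Genes and lists were chosen with earlier results of these data known. Full statistics were given for the smallest p of each role and the 3 highest and lowest levels per kb, and from each related list the 2 genes of smallest p were named. Ndufs1, Ndufaf4, the regulators, Acad9 and Timmdc1 were given beyond this rule, after their values were seen. The alternatives were other transcripts per gene, other thresholds and adjustments, another centring and the trend removal.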

Additional observations from a re-analysis of the deposited data

How the results depend on the processing

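No member passed under any of the 8 other thresholds, adjustments, transcripts or scalings tried. After subtraction of the trend on length and level, the median fell from 0.19 to 0.02 and the positive signs from 46 to 27. The subtracted trend, fitted on length and level together, had a median of 0.18 over the members. In that setting 19 members changed sign, to -0.07 for Ndufb4, -0.06 for Ndufaf1, -0.05 for Ndufs6, -0.04 for Ndufa12, Ndufa4 and Ndufs4, -0.03 for Ndufa3 and Ndufb9, -0.02 for Ndufa2, Ndufa5, Ndufaf7 and Ndufs1, -0.01 for Ndufa7 and Ndufa8, and 0.00 when rounded for Ndufa11, Ndufaf4, Ndufaf8, Ndufb11 and Ndufb3. With the median of all genes of at least 1 CPM (0.08) subtracted, the members' median was 0.11, and Ndufaf4 (-0.02) and Ndufs1 (0.00 when rounded) changed sign. With the transcript farthest from the 3′ end by its shared bases, an alternative chosen after seeing the data, Ndufaf1 (-0.04) and Ndufs1 (-0.19) did. The median was 0.19 or 0.20 under this and the other 5 settings that gave one. No paired analysis was possible because the values used are a finished comparison without values per library, and for the same reason no replicate could be left out and depth sets no stated limit.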

Other observations

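Processed pseudogenes with Nduf names were measured at under 1 CPM. In the authors' deposited table Ndufb4c stood at 0.114 CPM (log2 fold change -0.39), Ndufs6b at 0.0532 (0.40), Ndufab1-ps at 0.0522 (0.07) and Ndufa11b at 0.0340 (-0.86), all with p over 0.38. Reads of Ndufb4, Ndufs6, Ndufab1 and Ndufa11 can be shared with such copies, so their levels are uncertain to that extent. The most abundant transcripts of 10 members overlap exons of a gene on the opposite strand by at least 50 bases, with the largest shares in Ndufb6 (39.0%, with Smim27) and Ndufa13 (30.0%, with Tssk6). On the same strand, Ndufb9 overlaps Gm49356 (28.6%), Ndufb8 overlaps Gm20538 (19.7%) and Ndufb2 overlaps Gm42420 (3.32%). No source used here says whether reads were counted by strand. In 7 of 46 members the most abundant transcript is not annotated as coding, 6 retaining an intron and 1 subject to nonsense-mediated decay.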
